A study of Mus musculus with 4 samples.

Results

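The genes of the mouse histone clusters were examined in cultured mesenchymal cells of the hair follicle. They were taken as the rows of the raw count table whose gene name begins with Hist1h, Hist2h, Hist3h or Hist4h. The rule found 70 genes among 51826 in the table, and 69 of them had a count in at least 1 library. A mean of 10 or more raw counts was reached by 44, which are described below, and the other 26 had at most 14 counts in any library. The weakest genes inside this limit, Hist1h4c and Hist1h3c, had a mean of 10.5, and the strongest outside it, Hist1h2bl and Hist1h2ba, had means of 9.5 and 9.25.

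The cells were dermal papilla cells (DPCs), from the mesenchyme at the base of the hair bulb, and dermal sheath cells (DSCs), from the connective tissue around the follicle. All were labelled WT and, by the study's methods, came from vibrissal (whisker) follicles of C57BL/6J mice aged 5 to 6 weeks with an EGFP transgene, so every group carried the reporter. The labels give passage 3 (low passage) and passage 9 (high passage), and the design compared expression between them. There was 1 library for each cell type at each passage, and the number of mice behind a culture was not given. A difference between a pair of libraries therefore has no replicate check and no test; a model over all 4 libraries, given below, has no replicate cultures either. Passage cannot be told apart from any difference in when the libraries were made.

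Histones are the proteins around which DNA is wound: H2A, H2B, H3 and H4 form the core of the nucleosome, and H1 binds the linker DNA. Most clustered genes have no intron, are transcribed mainly in S phase, when new chromatin is assembled, and give mRNAs that end just after a conserved stem-loop instead of in a poly(A) tail. The stem-loop is bound by Slbp, and some of these genes can also be read through to a poly(A) signal farther downstream. The study's methods describe capture of mRNA with poly-T, which recovers transcripts without a tail poorly.

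The 3′ ends of the genes are shown first because they bear on which transcripts such a capture can see. A stem-loop, written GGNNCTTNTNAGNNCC with the N positions of the stem able to pair, was searched on the transcript strand in the GENCODE M21 transcripts (build GRCm38), which held 68 of the 70 genes. It was found in 44 of these 68 and in 61 of all 55450 genes, or 0.11%. The match of 16 bases is in capitals below, between its neighbouring bases, for genes that the results turn on and for the forms that the loop takes.
Hist1h1c stem-loop: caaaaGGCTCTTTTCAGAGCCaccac
Hist2h3c1 stem-loop: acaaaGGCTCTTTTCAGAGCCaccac
Hist2h2aa1 stem-loop: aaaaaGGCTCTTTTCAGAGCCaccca
Hist1h2be stem-loop: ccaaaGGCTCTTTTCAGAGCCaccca
Hist1h3f stem-loop: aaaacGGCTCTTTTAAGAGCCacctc
Hist1h3g stem-loop: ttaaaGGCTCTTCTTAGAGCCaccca
Hist1h4m stem-loop: ctaaaGGCCCTTTTCAGGGCCatc
Hist1h4i stem-loop: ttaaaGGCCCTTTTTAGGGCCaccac

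The form in Hist1h1c and Hist1h2be was shared by 24 genes of the H1, H2A, H2B and H3 classes, and the form in Hist1h3f by 6 genes of the H1, H2B and H3 classes. The form in Hist1h4m was found in 7 H4 genes, and no form was shared between H4 genes and those of another class. Annotated transcripts ran on past the stem-loop in many genes. In Hist1h4m 3 bases followed it and in Hist2h2aa1 35, while 840 followed it in Hist1h1c, 1167 in Hist2h3c1 and 1861 in Hist1h2be. A poly(A) signal, AATAAA or ATTAAA, lay in the last 50 bases of 17 genes. It is in capitals below for 6 of the genes described, which are shown because their annotated ends would carry a tail.
Hist1h1c end: gcttctAATAAAaagcgtttagtt
Hist2h3c1 end: aatcccAATAAAaatttaacacac
Hist3h2a end: atgcccAATAAAataagagtacgt
Hist1h2be end: ttccttATTAAAgcattcctgatt
Hist1h2br end: tctgtcATTAAAattggatagtct
Hist2h2be end: attattAATAAAgttaccgattag

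**Figure D1:**
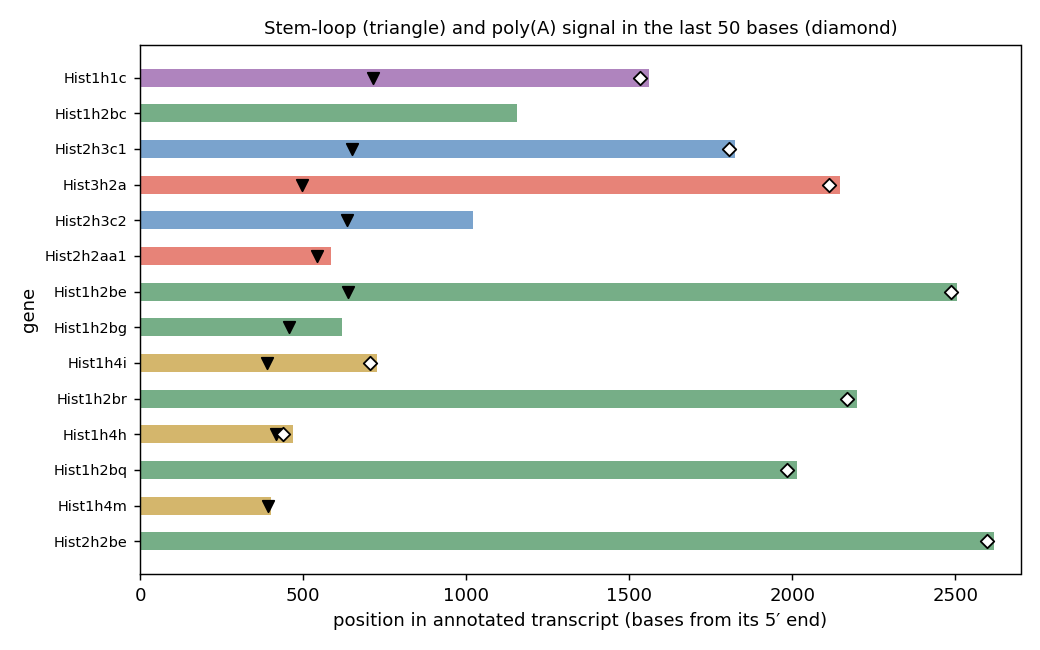
Annotated transcripts of the 14 clustered histone genes with a mean of 100 or more raw counts, drawn from the 5′ end in bases (horizontal axis), 1 gene a line and coloured by histone class as in the other plots. Triangles mark the stem-loop and diamonds the poly(A) signal in the last 50 bases; the stem-loop lies 1861 bases before the end in Hist1h2be and 3 bases before it in Hist1h4m.

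Of 68 annotated genes, 17 had this signal at the end and a further 10 ran more than 100 bases past the stem-loop without it. Another 20 ended within 100 bases of the stem-loop, and in 21 neither feature was found. Of those ending with the signal 13 passed the count limit, as did 10 of the second group, 12 of the third and 8 of the last. These classes were set after values of these data had been seen. The genes with neither feature include Hist1h2bc, one of the most abundant, whose annotated transcript of 1156 bases held no match.

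Sequence before the gene starts was taken from RefSeq (build GRCm38.p6), in windows of 300 bases that reach from 250 before to 50 after a start. There were 63 windows for 62 of the genes. CCAAT on either strand was in 85.7% of them, against 37.4% of all 32851 promoters, and in every window of the H1, H2A, H2B and H3 genes. Of the 12 H4 windows 3 held it. TATAAA on either strand was in 55.6% of the members' windows and in 13.6% of all, and the octamer ATTTGCAT on either strand in 22.2% and 1.7%. The octamer was found in 7 H2A and 7 H2B genes and in no window of another class. Motifs were counted separately, and matches of different motifs may overlap. A match of letters is a description and not evidence of binding. The 250 bases upstream of 3 genes are printed, with these motifs in capitals: Hist1h2br, whose upstream sequence is identical to that of Hist1h2bq and whose counts are given beside it; Hist1h2bg, which has all 3 motifs; and Hist1h4m, an H4 gene with TATAAA and no CCAAT.
Hist1h2br promoter, chr13:21833493-21833742 (plus strand): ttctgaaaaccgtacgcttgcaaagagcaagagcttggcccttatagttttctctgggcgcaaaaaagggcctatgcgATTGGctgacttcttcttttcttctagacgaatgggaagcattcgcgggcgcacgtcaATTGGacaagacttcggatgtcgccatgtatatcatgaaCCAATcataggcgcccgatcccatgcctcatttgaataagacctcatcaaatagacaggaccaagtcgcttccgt
Hist1h2bg promoter, chr13:23571150-23571399 (plus strand): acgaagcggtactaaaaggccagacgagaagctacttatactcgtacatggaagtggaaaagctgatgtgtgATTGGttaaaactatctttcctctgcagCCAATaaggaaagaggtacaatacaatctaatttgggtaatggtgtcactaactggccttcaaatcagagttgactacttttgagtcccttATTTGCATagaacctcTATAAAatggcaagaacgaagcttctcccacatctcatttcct
Hist1h4m promoter, chr13:21811496-21811745 (plus strand): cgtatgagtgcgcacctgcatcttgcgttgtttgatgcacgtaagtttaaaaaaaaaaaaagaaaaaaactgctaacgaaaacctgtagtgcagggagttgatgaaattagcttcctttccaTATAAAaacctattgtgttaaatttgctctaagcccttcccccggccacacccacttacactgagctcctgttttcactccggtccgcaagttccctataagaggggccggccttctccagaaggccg

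The libraries held between 34981284 and 47604059 counts. Levels are given as raw counts, as counts scaled by the TMM-adjusted library size (CPM, which removes differences in depth and composition), or, where genes are compared, as the deposited FPKM, which is also scaled to transcript length. In the label check, the mesenchymal genes Thy1, Cd44, Itgb1 and Vim were present in every library, and so was Acta2, the smooth muscle actin used as the dermal sheath marker. Acta2 did not separate the cell types as labelled: it was at 7123 CPM in low-passage DPCs, above both DSC libraries (5728 and 4330 CPM), and at 1870 in high-passage DPCs, so that it was lower where the histone sum of DPCs was higher, and its part in that was not tested. Sox2 and Ncam1, which the study stained in both cell types, were present in all. Sox2 was higher in DPCs, at 45.6 and 41.5 CPM at low and high passage, than in DSCs, at 7.09 and 3.91. Ncam1 was higher in DSCs, at 310 and 342 CPM, than in DPCs, at 99.0 and 46.6. The papilla markers Alpl, Corin and Lepr had at most 23 counts. Lef1 had 508 and 2 in low- and high-passage DPCs and 101 and 55 in DSCs. The 3 keratinocyte and 3 melanocyte markers were at 0 in every library, which allows up to 3 counts. The summed level of the 3 immune markers was 5.41 CPM in low-passage and 1.42 in high-passage DPCs, and 7.39 and 2.55 in DSCs; that of the 2 endothelial markers was 0.761, 0.111, 1.79 and 0.198. The part of other cells in the histone values was not tested, and in bulk RNA fewer cells of a type and less RNA per cell cannot be told apart.

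The summed level of all 70 genes was higher at high passage in both cell types. It was 292.5 CPM in low-passage DPCs and 402.5 in high-passage DPCs (95% Poisson intervals 287.0 to 298.1 and 395.9 to 409.1). In DSCs it was 354.3 and 448.9 (348.4 to 360.4 and 442.7 to 455.1). The ratio of high to low passage was 1.38 in DPCs and 1.27 in DSCs. These intervals cover counting error only, and do not overlap between any pair of libraries of the same cell type.

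Hist1h1c and Hist1h2bc were the largest contributors to that sum. Together they made up 62.7% and 49.1% of it in DPCs at passages 3 and 9, and 68.7% and 71.0% in DSCs. The other 68 genes together reached 109.2 and 205.0 CPM in low- and high-passage DPCs and 110.8 and 130.3 in DSCs, ratios of 1.88 and 1.18. At passage 3 the other genes were thus at nearly the same summed level in both cell types, with a ratio of DPCs to DSCs of 0.986, and at passage 9 the ratio was 1.57. Part of this rests on Hist2h2aa1, described below. Without it the ratios with passage were 1.94 in DPCs and 1.35 in DSCs. Those of DPCs to DSCs were then 0.994 at passage 3 and 1.43 at passage 9. The 26 genes below the count limit had 119 and 129 counts in DPCs and 90 and 108 in DSCs, and their ratios with passage were 1.11 (95% interval 0.86 to 1.44) and 0.999 (0.748 to 1.34).

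**Figure D2:**
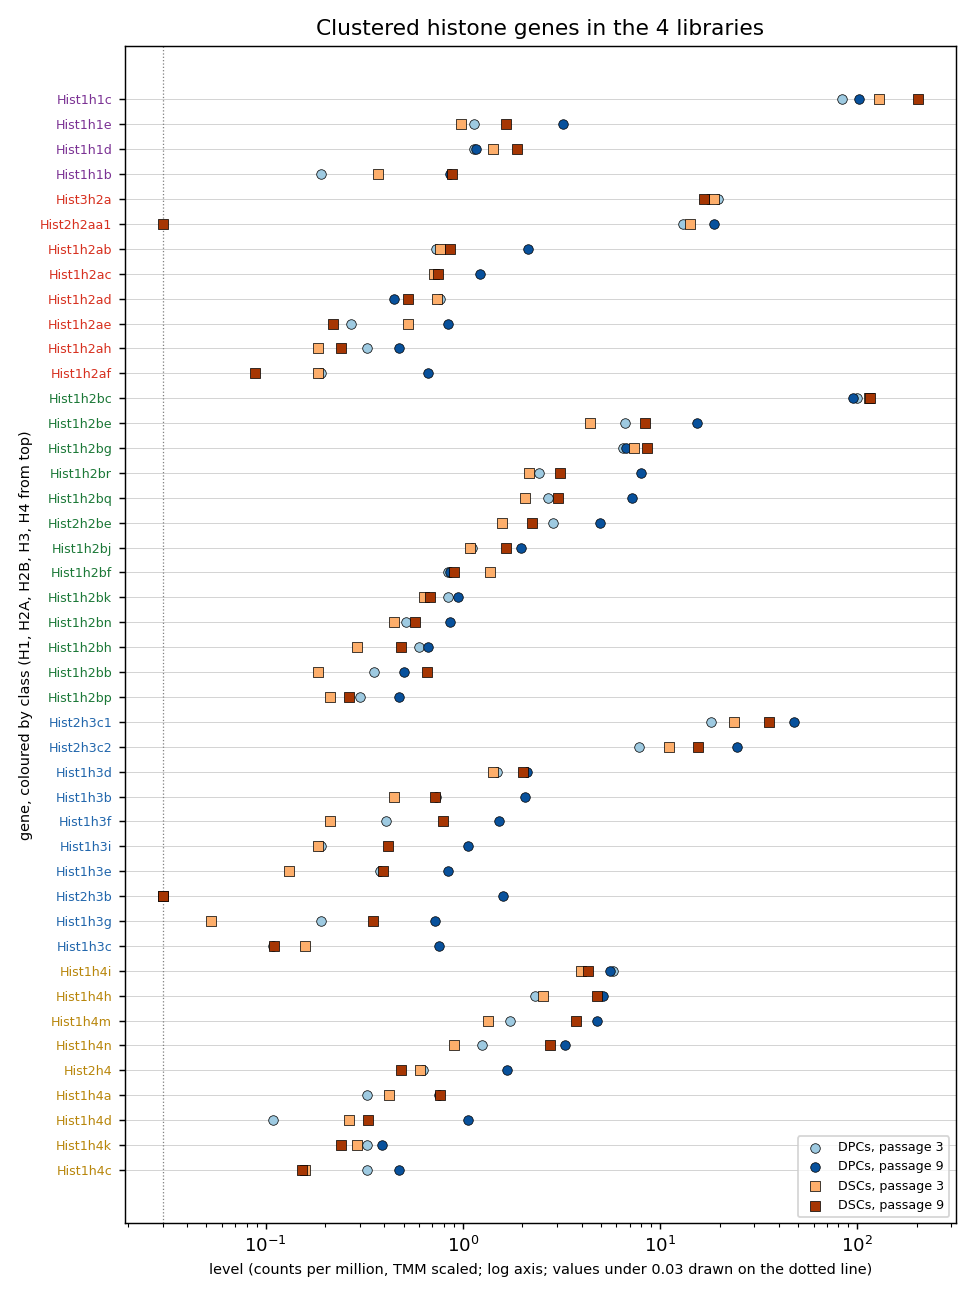
Level of the 44 clustered histone genes in each library, in CPM on a log axis, with 1 gene a line grouped by class and 4 points a gene (circles, DPCs; squares, DSCs; dark, passage 9). Hist1h1c and Hist1h2bc lie far to the right of most other genes, and Hist2h2aa1 in passage 9 DSCs and Hist2h3b outside passage 9 DPCs are on the dotted line; there were no replicates and no error bars are drawn.

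For single genes the change was taken as the difference in log2 CPM between passage 9 and passage 3, computed at a prior count of 2, with a 95% interval from the counts of the 2 libraries (exact Clopper-Pearson). In DPCs 40 of the 44 genes were higher at high passage and 4 lower, with a median log2 difference of 1.06, beside 0.03 over all 16734 genes with a mean of at least 10 counts. In DSCs 33 were higher, 10 lower and 1 at 0 in both libraries, with a median of 0.44 beside 0.00. Of the 16734 genes, 8585 were higher and 8121 lower in DPCs, and 8399 and 8322 in DSCs. The interval lay above 0 for 28 genes in DPCs (63.6%, background 39.7% of all genes) and below 0 for 1 (2.27%, background 37.9%). In DSCs it lay above 0 for 18 (40.9%, background 33.8%) and below 0 for 3 (6.82%, background 32.9%). With all counts halved, for a reason given below, 25 of the 29 intervals in DPCs and 10 of the 21 in DSCs stayed away from 0. Without the count limit the medians over the 69 genes with a count were 0.52 and 0.21.

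At 4-fold, the threshold that the study states, 4 genes were higher in DPCs (9.09%, background 5.58%) and none lower (background 4.36%). In DSCs none was higher (background 2.67%) and 1 was lower (2.27%, background 1.16%). Of those 4, Hist1h3c, Hist1h4d and Hist2h3b reached the count limit only through high-passage DPCs, the library where they are high, so the share is no support for a change. None passed in both cell types, where the background was 1.27% higher and 0.508% lower. At 2-fold, 23 genes were higher in DPCs (52.3%, background 16.1%) and none lower (background 15%). In DSCs 7 were higher (15.9%, background 8.55%) and 2 lower (4.55%, background 6.21%). In both cell types 6 were at least 2-fold higher (13.6%, background 4.86%) and none lower (background 3.54%). In all, 6 of the 44 genes (13.6%) would miss the limit without high-passage DPCs, beside 1.66% of all genes, and 5 of them are among the 23; the shares in DPCs are therefore a description only.

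**Figure D3:**
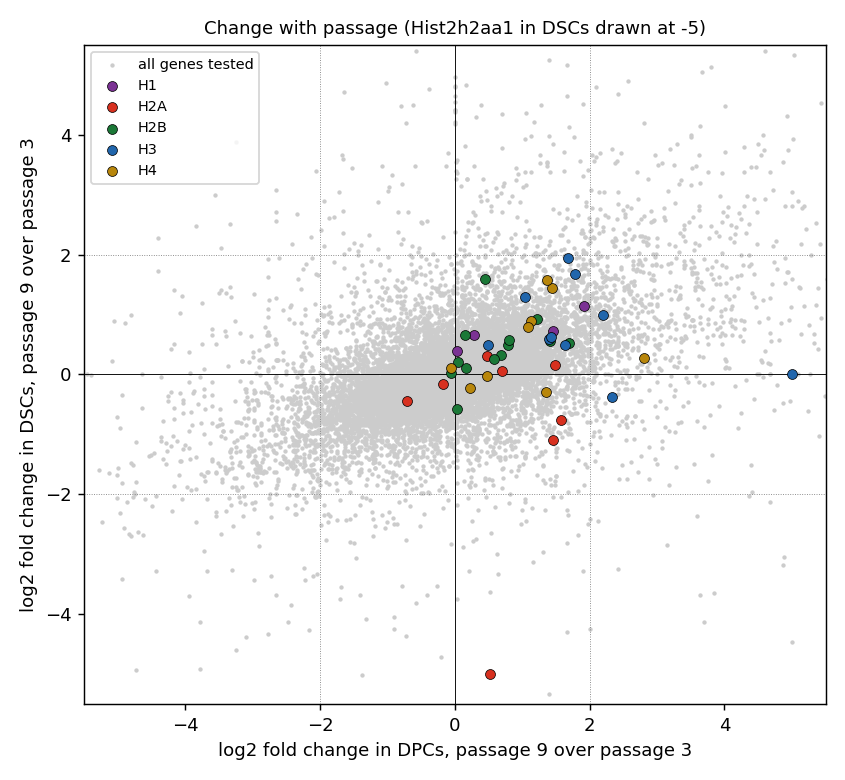
Log2 fold change with passage in DPCs (horizontal axis) and in DSCs (vertical axis) for the 44 clustered histone genes, coloured by class, over all 16734 genes tested in grey; dotted lines mark 4-fold. Most histone points lie to the right of 0, between 0 and 2 in DPCs, and 32 are at or above 0 on both axes, with Hist2h3b at 0 in DSCs. Hist2h2aa1, at -7.60 in DSCs, is drawn at -5.

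The H1 class was led by Hist1h1c (chromosome 13, 23738808 to 23740367, build GRCm38), a linker histone and the member with the highest mean count. It had 3082 and 3660 counts in DPCs at passages 3 and 9, and 4899 and 9218 in DSCs. Both DSC libraries lay above both DPC libraries. The log2 change with passage was 0.28 (0.21 to 0.35) in DPCs and 0.65 (0.60 to 0.70) in DSCs, and the difference of DPCs over DSCs was -0.63 at passage 3 and -0.99 at passage 9. Per length, its FPKM was 49.3, 59.7, 71.7 and 110 in the same order of libraries.

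Other linker histones had far fewer counts. Hist1h1e had 42 and 115 counts in low- and high-passage DPCs and 37 and 75 in DSCs, log2 changes of 1.45 (0.97 to 2.04) and 0.72 (0.17 to 1.36). Hist1h1d had 42, 42, 54 and 86, and its interval included 0 for both passage changes. Hist1h1b, another linker histone gene, had 7 and 31 in DPCs and 14 and 40 in DSCs, changes of 1.92 (0.97 to 3.61) and 1.14 (0.34 to 2.24). All 4 H1 genes were thus higher at high passage in both cell types, 3 of them with an interval above 0 in each. Summed over the 6 genes of the class, the ratio with passage was 1.24 in DPCs and 1.57 in DSCs.

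Among the H2B genes the most abundant one was at nearly the same level in both passages, while several weaker ones were higher at passage 9. Hist1h2bc, which encodes a core H2B, had 3665 and 3428 counts in low- and high-passage DPCs and 4333 and 5297 in DSCs. Its log2 changes were -0.06 (-0.13 to 0.01) and 0.02 (-0.03 to 0.08), and it had the highest FPKM of the genes described, 125, 119, 135 and 134. Hist1h2be had 243, 553, 167 and 384 counts, changes of 1.22 (1.00 to 1.45) and 0.93 (0.67 to 1.21). The 2 high-passage libraries were above both low-passage libraries for this gene.

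Hist1h2br and Hist1h2bq, whose upstream sequence is the same, also shared 88.7% and 97.3% of their 50-base windows with other genes, so that their reads may have been divided between copies. Hist1h2br had 89 and 287 counts in DPCs and 82 and 142 in DSCs, changes of 1.70 (1.38 to 2.08) and 0.52 (0.12 to 0.94). Hist1h2bq had 99, 259, 78 and 139, changes of 1.41 and 0.56. High-passage DPCs stood above the other 3 libraries for both. Hist2h2be, in which no 50-base window was shared, had 105, 178, 60 and 102 counts and changes of 0.79 (0.44 to 1.16) and 0.49 (0.03 to 0.99). Hist1h2bg, with 238, 240, 279 and 389, had intervals that included 0 in both cell types. Over the 13 H2B genes above the limit the medians were 0.58 and 0.49, with 12 higher in each cell type.

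The H3 class had the highest ratio with passage in DPCs of any class. Its 12 genes reached 29.8 and 83.1 CPM in low- and high-passage DPCs and 37.7 and 56.3 in DSCs, ratios of 2.79 (95% interval 2.60 to 3.00) and 1.495 (1.400 to 1.596). All 10 H3 genes above the limit were higher at high passage in DPCs, 9 of them at least 2-fold (background 16.1%). The 9 include Hist1h3c, Hist1h3g and Hist2h3b, which reached the limit only through high-passage DPCs. The count and the median of 1.65 in DPCs are therefore a description only. In DSCs the median was 0.61. Hist2h3c1 had 664 and 1703 counts in DPCs and 898 and 1623 in DSCs, changes of 1.39 (1.26 to 1.53) and 0.59 (0.47 to 0.71). Hist2h3c2 had 289, 876, 422 and 711, changes of 1.63 (1.44 to 1.83) and 0.49 (0.31 to 0.66). For both genes DSCs had the higher level at passage 3, by -0.39 and -0.50 on the log2 scale of DPCs over DSCs, and DPCs at passage 9, by 0.41 and 0.64. Another gene, Gm20634, covers all exonic bases of Hist2h3c1 on the same strand. At passage 9 it was at 0.947 CPM in DPCs and 31.3 in DSCs, beside 47.5 and 35.6 for Hist2h3c1. How reads were assigned between them was not tested.

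Weaker H3 genes were also higher in DPCs, on few counts. Hist1h3f had 15 and 55 counts in DPCs and 8 and 36 in DSCs, changes of 1.79 (1.07 to 2.84) and 1.68 (0.78 to 3.22). Hist1h3g had 7, 26, 2 and 16, and Hist1h3e had 14, 30, 5 and 18. The other genes at least 2-fold higher in both cell types were Hist1h1b and 2 H4 genes, Hist1h4m and Hist1h4n. In DPCs the 4 genes past 4-fold were Hist1h3i (7 and 38 counts), Hist1h3c (4 and 27), the H4 gene Hist1h4d (4 and 38) and Hist2h3b. Hist2h3b had 0, 57, 0 and 0 counts and passed the limit only through high-passage DPCs, where it was at least 19.5-fold higher against a floor of 3 counts in the low-passage library. It shared all its 50-base windows with other genes. These sets were named after their values were seen.

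Among the H4 genes some were higher in both cell types and others at a similar level. Hist1h4m had 64 and 172 counts in DPCs and 51 and 170 in DSCs, a log2 change of 1.44 in each cell type (1.04 to 1.90 and 1.01 to 1.95). Hist1h4n had 46, 118, 34 and 126, changes of 1.36 (0.89 to 1.92) and 1.57 (1.07 to 2.22). These 2 genes end 3 and 31 bases after the stem-loop and shared 89.8% and 85.6% of their windows. Hist1h4h, which has a poly(A) signal in its last 50 bases, had 85, 184, 97 and 218, changes of 1.13 and 0.89. Hist1h4i had 213, 200, 151 and 196, with intervals that included 0 in both passage contrasts. The summed level of the 13 H4 genes was 13.3 and 23.9 CPM in DPCs and reached 18.1 in high-passage DSCs, with ratios of 1.80 (1.61 to 2.02) and 1.64 (1.46 to 1.85).

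Among the H2A genes, Hist3h2a was lower at high passage by a small amount. It had 721 and 624 counts in DPCs and 710 and 762 in DSCs, changes of -0.17 (-0.33 to -0.02) and -0.16 (-0.31 to -0.01). With all counts halved, both of its intervals included 0. Hist1h2ae had 10 and 30 counts in DPCs and 20 and 10 in DSCs, changes of 1.46 (0.55 to 2.82) and -1.10 (-2.52 to -0.10). Its counts were low, and high-passage DPCs were the highest of the 4 libraries. The medians of the 8 H2A genes above the limit were 0.61 in DPCs and -0.30 in DSCs. Without Hist2h2aa1 the summed level of the other 19 was 24.1, 24.6, 22.9 and 20.5 CPM, ratios with passage of 1.02 (0.93 to 1.12) and 0.894 (0.815 to 0.982).

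Hist2h2aa1 had 480 and 673 counts in DPCs at passages 3 and 9, and 536 and 1 in DSCs. The log2 change was 0.52 (0.35 to 0.70) in DPCs and -7.60 in DSCs, where the single count gave an interval of -14.64 to -6.85. It was the only member past 4-fold in DSCs. Gm20634, a gene annotated on the same strand that covers 90.3% of its exonic bases and all those of Hist2h3c1, had 98, 34, 3 and 1426 counts. The sum of the 2 genes was 578, 707, 539 and 1427 counts, or 15.7, 19.7, 14.2 and 31.3 CPM, with log2 changes of 0.33 and 1.14. Hist2h2aa1 has a copy, Hist2h2aa2, that holds the same windows and had 5, 0, 0 and 0 counts. The lowest count of Hist2h2aa1 and the highest of Gm20634 were thus in the same library, and how reads were assigned between them was not tested.

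**Figure D4:**
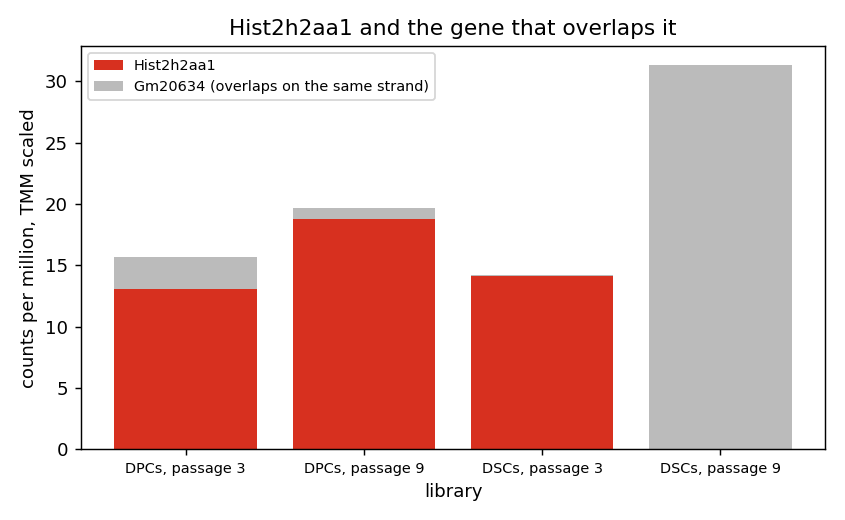
CPM of Hist2h2aa1 (red) and of Gm20634, which overlaps it on the same strand (grey), stacked for each of the 4 libraries on an axis that starts at 0. Red makes up most of the bars of 15.7, 19.7 and 14.2 CPM, while the bar of passage 9 DSCs, 31.3 CPM high, is grey; there were no replicates.

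Copies and overlaps touched other genes as well. Of the 43 reported genes found in the annotation, 21 shared more than 50% of their 50-base windows with other genes and 5 shared less than 10%. Another gene overlapped 6 of them on the same strand and 9 on the opposite strand, and the use of strand in counting was not given. The median change of the 22 genes that shared at most 50% was 0.74 in DPCs and 0.33 in DSCs, and that of the 21 others 1.39 and 0.49. The genes also had different annotated ends. Those with an annotated extension past the stem-loop or a terminal poly(A) signal (23 genes) had median changes of 1.09 and 0.49. Those in which neither was found (20 genes) had 1.08 and 0.23. The summed level was taken over all annotated genes of each kind, with or without the count limit. For the 27 of the first set it went from 165.9 to 260.3 CPM in DPCs and from 214.1 to 314.7 in DSCs. For the 41 of the second set it went from 126.0 to 141.5 and from 139.8 to 133.6. The second set holds Hist2h2aa1 and also Hist1h2bc, in whose annotated transcript no stem-loop was found. Hist1h2bc was at 99.6 and 95.5 CPM in DPCs and 114.3 and 116.2 in DSCs, most of that sum. The part of tail capture in these values was not tested.

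The comparison of DPCs with DSCs asked how far the genes differed between cell types at one passage. At passage 3 the median log2 difference of DPCs over DSCs was 0.06, beside 0.0 over all 16734 genes. Of the 44 genes, 28 were higher in DPCs and 15 in DSCs. None was 4-fold apart in either direction, with a background of 1.52% higher in DPCs and 2.77% in DSCs. At 2-fold 2 genes, Hist1h3e and Hist1h3g, were higher in DPCs (4.55%, background 5.43%) and none in DSCs (background 7.86%). The largest differences among genes with a mean of at least 50 counts were 0.83 (0.38 to 1.33) for Hist2h2be, 0.58 for Hist1h2be and 0.53 for Hist1h4i, higher in DPCs, and those of Hist1h1c, Hist2h3c2 and Hist2h3c1, given above, higher in DSCs.

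At passage 9 the median was 0.66, beside -0.01 over all 16734 genes, with 35 genes higher in DPCs and 9 in DSCs. The 44 genes include the 6 that reached the count limit only through high-passage DPCs. Past 4-fold 4 genes were higher in DPCs (9.09%, background 2.5%): Hist2h2aa1 at 8.01 (7.26 to 15.04), Hist1h2af at 2.37 (1.39 to 4.92), Hist1h3c at 2.32 (1.38 to 4.51) and Hist2h3b, at least 24.1-fold. The last 3 reached the count limit only through high-passage DPCs, so the share is a description only. None was higher in DSCs (background 3.91%). At 2-fold 14 were higher in DPCs (31.8%, background 9.11%), 5 of which reached the limit in the same way, and none in DSCs (background 11%). Among genes with a mean of at least 50 counts, Hist1h2br and Hist1h2bq followed Hist2h2aa1, at 1.35 (1.06 to 1.66) and 1.23 (0.94 to 1.55). Hist1h1c, Hist1h1d and Hist1h2bg were furthest toward DSCs, at -0.99, -0.67 (-1.26 to -0.14) and -0.35 (-0.59 to -0.12).

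A model with cell type and passage over all 4 libraries asked whether a passage difference stood out beyond how far the 2 cell types differed in it. It has 1 residual degree of freedom, which comes from that difference and not from replicate cultures. The quasi-likelihood test in edgeR called none of the 44 genes for passage after Benjamini-Hochberg adjustment, with a smallest adjusted p of 0.21, and called 0% of all genes. At an unadjusted p under 0.05 it took 8 of the 44 as higher (background 9.07%) and none as lower (background 7.8%). The 8 include Hist2h3b, which reached the count limit only through high-passage DPCs, so this count is a description only. DESeq2 called none of the 44 after adjustment, with 7 left without an adjusted value, beside 5.71% of all genes.

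The other genes of histone supply were taken from 4 lists. Replacement histones, which are made outside S phase from genes outside the clusters, were at a median of -0.46 (DPCs) and -0.23 (DSCs) over 11 genes, with 7 lower in each. H3f3a and H3f3b, which encode the replacement H3.3, had changes of -0.46 and -0.52 in DPCs and 0.36 and 0.16 in DSCs. H2afz, which encodes the variant H2A.Z, had 3148 and 1057 counts in DPCs and 2891 and 1626 in DSCs, changes of -1.54 and -1.09. H1f0, a linker histone of resting cells, was at 0.40 and -0.23. Past 4-fold in DPCs were Cenpa, the centromeric H3, at -3.07 (background 4.36%), and H1fx, at 0 counts against 22 (at least 7.52-fold higher, background 5.58%). Both were named after their values were seen. In DSCs no gene of this list was past 4-fold (background 2.67% higher and 1.16% lower).

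The list of histone gene transcription and 3′ end formation had a median of -0.05 in DPCs, with 7 of 17 genes higher and 10 lower, and of -0.28 in DSCs, with 3 higher and 12 lower. In DPCs 1 gene was at least 2-fold higher (background 16.1%) and 1 lower (background 15%). In DSCs none was (background 8.55% higher and 6.21% lower). Slbp had 811 and 692 counts in DPCs and 759 and 707 in DSCs, changes of -0.19 and -0.37. Npat, the coactivator of histone gene transcription, was at 0.34 and -0.00. Histone chaperones had medians of -0.49 and -0.30 over 20 genes, with 5 at least 2-fold lower in DPCs (background 15%), 4 in DSCs (background 6.21%) and none higher. The 4 lower in both (background 3.54%) were Nasp, Asf1b, Chaf1b and Hat1, which handle or acetylate newly made histones.

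Genes of S phase DNA synthesis were mostly lower at high passage, unlike the clustered histone genes. Their median was -1.32 in DPCs and -0.92 in DSCs over 24 genes, with 23 and 22 lower. At least 2-fold lower were 18 in DPCs (background 15%), 8 in DSCs (background 6.21%) and 8 in both (background 3.54%), and none was 2-fold higher. Past 4-fold in DPCs were Ccna2 (-3.24), Cdc6 (-2.96) and Mcm5 (-2.68), named after their values were seen (background 4.36%). None of the 4 lists had a gene 4-fold in the same direction in both cell types (background 1.27% higher and 0.508% lower). The clustered histone genes and the S phase genes thus differed in sign in both cell types, as medians of 1.06 and -1.32 in DPCs and of 0.44 and -0.92 in DSCs.

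**Figure D5:**
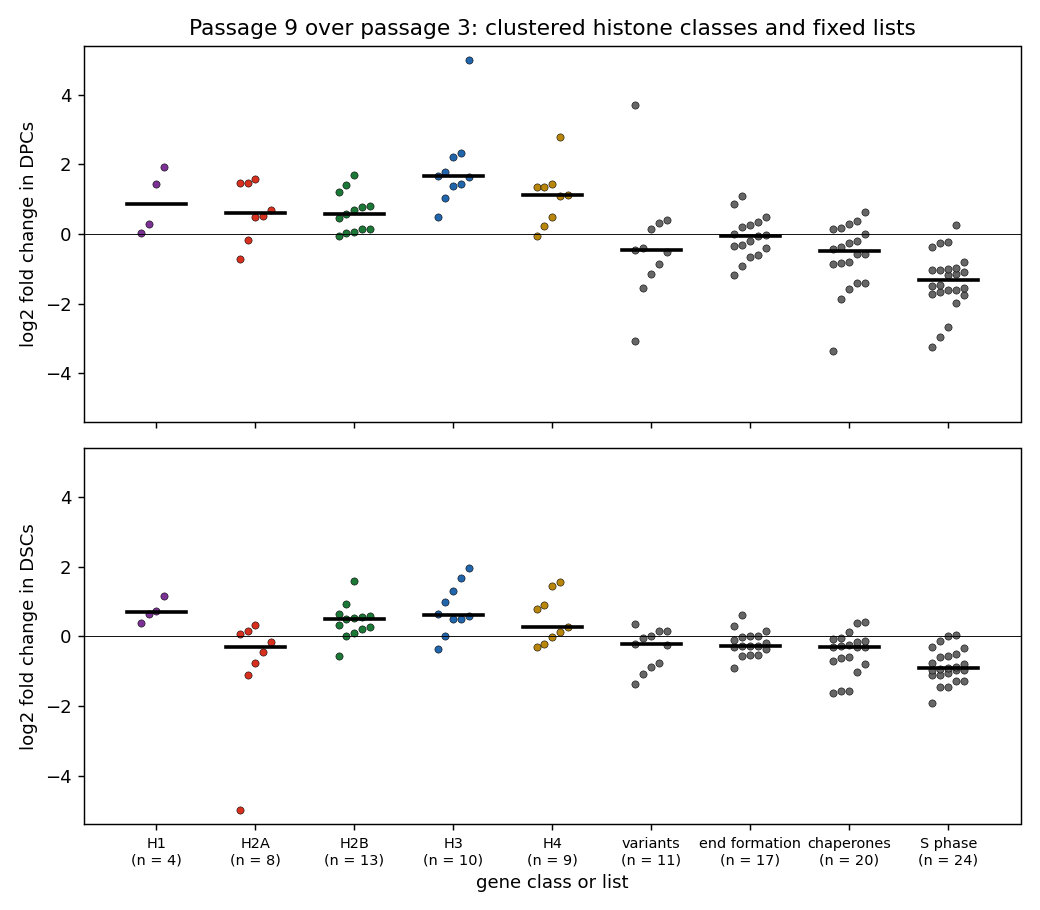
Log2 fold change with passage in DPCs (upper panel) and DSCs (lower panel), 1 point a gene, for the 5 histone classes and the lists of replacement variants, end formation, chaperones and S phase genes; bars are medians and values below -5 are drawn at -5. The H3 median is the highest in DPCs, at 1.65, and the S phase median the lowest in both panels, at -1.32 and -0.92.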

How the data were processed

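RNA from 4 cultures (DPCs and DSCs at passages 3 and 9) was sequenced as 1 library each. The authors deposited raw counts per gene, not normalized, and FPKM, which the authors normalized to transcript length and to depth. Poly-T capture is from the study's methods; the labels name an Illumina TruSeq RNA kit. The submitters' processing notes name Bowtie 0.12.2, mm8 and mm9; the aligner, counting program and strand setting behind these values were not given in the sources used here. Gene positions were on GRCm38: 51633 of 51826 IDs were in GENCODE M21, 94.1% with an identical position.

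Total counts were 35340038 and 34981284 in DPCs at passages 3 and 9 and 38780425 and 47604059 in DSCs, so that a count of 0 allows up to 0.0815, 0.0836, 0.0791 and 0.0658 CPM. Even counts were in excess, with 1339 genes at 2 counts and 583 at 3 in passage 3 DPCs. Halving all counts, as if both mates of a pair were counted, left 25 of the 29 intervals away from 0 in DPCs, 10 of 21 in DSCs, 7 of 8 between cell types at passage 3 and 21 of 28 at passage 9. Intervals cover counting error only.

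Counts were scaled by TMM (edgeR 4.0.16 with limma 3.58.1, in R 4.3.3), genes averaging 10 or more counts kept, and log2 CPM taken with a prior count of 2. The additive model used glmQLFit, with DESeq2 1.42.0 as the alternative. Intervals used SciPy 1.17.1. The scripts were tested on simulated data. Groups came from sample titles. Alternatives were other scalings, count limits, prior counts, FPKM with a pseudocount of 0.1, halved counts and a 2-fold threshold.

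Members and lists were chosen with earlier results of these data known. Genes named with every count were those with a mean of at least 500, the 3 largest differences each way per contrast among those with at least 50, those with intervals on opposite sides of 0 in DPCs and DSCs, and, from the lists, Slbp, Npat, H3f3a, H3f3b, H2afz, H1f0 and any gene 4-fold in both cell types. Other genes were named after their values were seen.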

Additional observations from a re-analysis of the deposited data

Results flagged for a closer look

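Hist2h2aa1 and Hist1h2ae stood out because their counting intervals lay above 0 in DPCs and below 0 in DSCs. The log2 change with passage in DPCs exceeded that in DSCs by 8.12 for Hist2h2aa1 and by 2.55 for Hist1h2ae. With 1 library in each group, neither difference was tested. Hist2h2aa1 had 1 count in high-passage DSCs, where the overlapping Gm20634 had 1426, and Hist1h2ae had at most 30 counts in any library. With all counts halved, the interval of Hist1h2ae in DSCs included 0.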

How the results depend on the processing

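No paired analysis was possible because the labels give no replicate numbers, with 1 library in each group; cell type is a term of the additive model instead, and no replicate could be left out. The number of members at least 4-fold higher in DPCs with passage went from 4 to 0 at a mean count of at least 100, to 1 with a prior count of 10 and to 23 at 2-fold. In DSCs the number higher went from 0 to 1 with a prior count of 0.5, to 1 on FPKM and to 7 at 2-fold, and the number lower from 1 to 2 at 2-fold and to 0 without Hist2h2aa1, an alternative added after seeing the data. Members higher in DPCs than in DSCs numbered 2 at passage 3 at 2-fold; at passage 9 they went from 4 to 1 at a mean of at least 100, to 2 with a prior count of 10 and to 14 at 2-fold. At 2-fold 6 were higher in both cell types. The DPC median was 0.52 without the count limit. Scaled by total counts, the summed level was 304.6 and 412.9 CPM in low- and high-passage DPCs and 346.4 and 429.7 in DSCs, and without Hist1h1c it was 208.8, 300.5, 225.1 and 246.6. No listed median reversed its direction. In DSCs the 4-fold counts, 0 higher and 1 lower, became 7 and 2 at 2-fold, so that more genes were then higher than lower. The medians over the genes that shared at most 50% of their windows, also added after seeing the data, were 0.74 in DPCs and 0.33 in DSCs. On FPKM the median of the replacement variants went from -0.46 to -0.86 in DPCs and from -0.23 to -0.13 in DSCs. A further 136 alternative values for single genes stayed within the counting interval. The 4 single-gene values that moved include Hist1h2bc in DSCs, whose 0.02 became -0.01 on total counts, within its interval, and Hist2h2aa1 in DSCs, at -5.69 with a prior count of 10. The cause of these shifts was not tested.

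Low counts limit most of these genes: 14 of the 44 had a mean of at least 100, so that the 4-fold calls in DPCs rest on genes with few counts.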
